A study of Homo sapiens with 6 samples.

Results

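The 10 genes described here encode the MiT/TFE transcription factors TFEB, TFE3 and MITF, the folliculin complex (FLCN with its partners FNIP1 and FNIP2) and the RAG GTPases RRAGA, RRAGB, RRAGC and RRAGD. They were chosen by their symbols. All 10 stood among the 21857 genes of the deposited tables, and all 10 passed the filter on low counts that left 13531 genes for testing. RNA was sequenced from MV4;11, an established acute myeloid leukemia cell line that carries FLT3-ITD and MLL-AF4. 3 libraries came from cells given flavokawain A (FKA), a chalcone of the kava plant, at 10 µg/ml for 48 h, and 3 from cells without it. Both groups share the line, its genotype and the culture medium, and a vehicle for the control is not named in the labels. The labels place 1 FKA and 1 control library in each of 3 batches. They do not say whether the libraries came from separate cultures, so p-values measure the spread between these libraries, which may be technical.

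RAG GTPases work as pairs of RRAGA or RRAGB with RRAGC or RRAGD. On the lysosome, when amino acids are plentiful, the pair recruits the growth kinase mTORC1. Folliculin with FNIP1 or FNIP2 is the GTPase-activating complex for RRAGC and RRAGD, and RRAGC or RRAGD in the GDP-bound state presents TFEB and TFE3 to mTORC1, whose phosphorylation holds them in the cytoplasm. When that phosphorylation is lost the factors enter the nucleus and raise lysosome and autophagy genes, including some genes of this same circuit, such as RRAGD. These steps act on proteins, and RNA sequencing measured transcripts.

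With FKA, TFE3 and the 4 RAG transcripts rose, while TFEB and FLCN fell. MITF, FNIP1 and FNIP2 did not pass the test. Thus 5 of the 10 genes were higher and 2 were lower, whereas 29.3% and 30.5% of all tested genes were called higher and lower, and 59.8% were called in either direction (edgeR quasi-likelihood test, Benjamini-Hochberg adjusted p at or under 0.05). The share of these genes called is therefore close to the background of this comparison. Their median log2 fold change was 0.17, against 0.01 over all tested genes. The rises of TFE3, RRAGA, RRAGC and RRAGD passed under every alternative run, whereas those of RRAGB and both falls were lost under some. Levels within 1 gene are given as TMM-scaled CPM (a gene's reads relative to the scaled size of its library), and levels between genes as the deposited FPKM, which are scaled per gene length. Bulk RNA cannot tell fewer cells of one state from less RNA per cell.

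**Figure D1:**
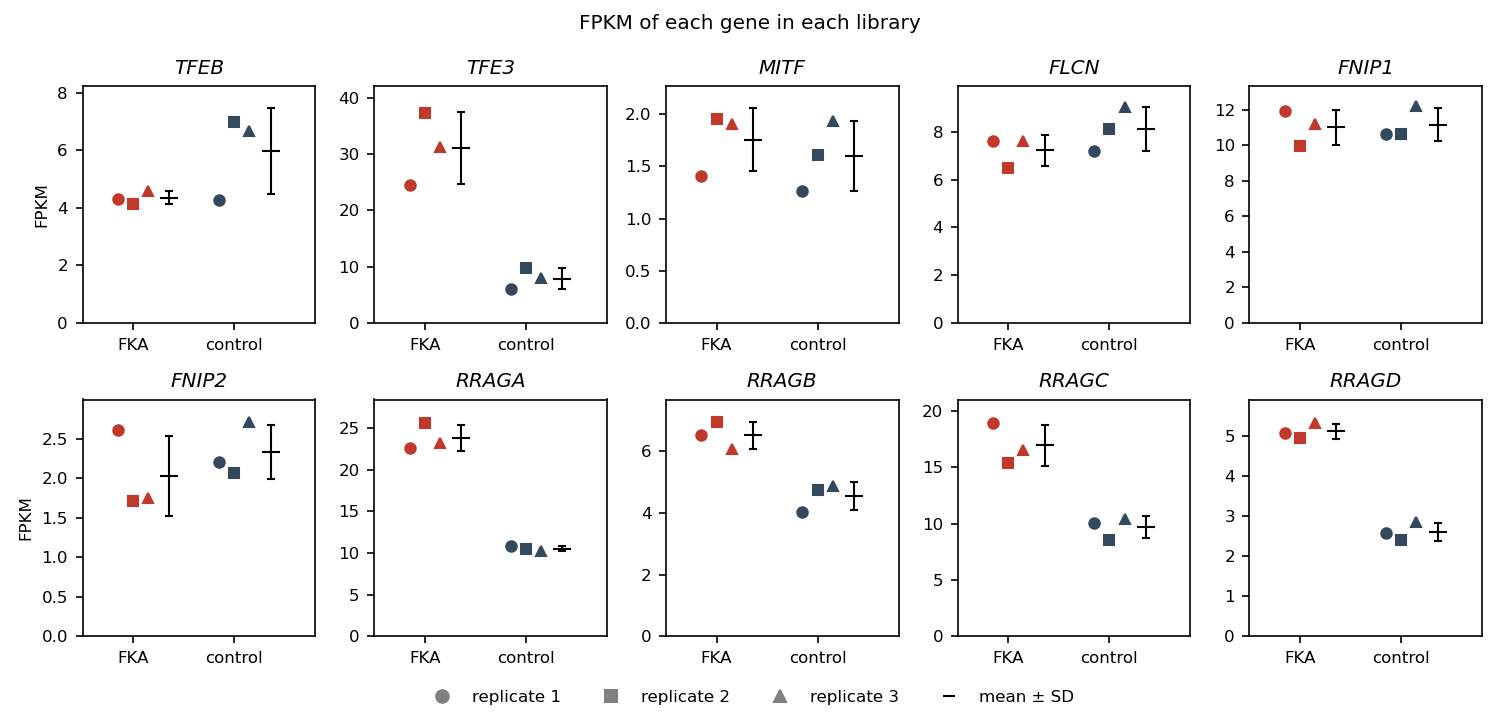
FPKM of the 10 genes (vertical axes, each from 0) in the 3 FKA libraries and the 3 control libraries, with mean and SD. TFE3, RRAGA, RRAGB, RRAGC and RRAGD lay higher in every FKA library than in any control library, and the single control library at 4.26 FPKM of TFEB lay among the FKA libraries.

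TFE3 is the MiT/TFE factor that, with TFEB, drives lysosomal genes in many cell types. It stood at 77.9, 117 and 99.7 CPM in FKA replicates 1 to 3, against 21.8, 32.8 and 28.3 CPM in control replicates 1 to 3. Every FKA library lay far above every control library. The rise was 3.55-fold (log2 fold change 1.83, SE 0.183, edgeR adjusted p = 5.95e-05), and within batches 1, 2 and 3 the log2 difference was 1.84, 1.83 and 1.82. A called rise of at least 2-fold was found in 11.9% of tested genes.

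TFEB is the best-known regulator of lysosome formation. It stood at 15.0, 14.1 and 16.0 CPM in FKA replicates 1 to 3, against 16.9, 25.9 and 26.1 CPM in control replicates 1 to 3. The FKA libraries lay close together, and control replicate 1 lay just above them and well below the other controls. The fitted change in log2 was -0.61 (SE 0.175, edgeR adjusted p = 0.0147). Batches 1, 2 and 3 gave -0.17, -0.87 and -0.70. The call was lost without control replicate 2 (-0.52, edgeR adjusted p = 0.0501) or control replicate 3 (-0.52, edgeR adjusted p = 0.0573), while without control replicate 1 the value was -0.80 (edgeR adjusted p = 0.000567). With library totals as the only scaling it also missed the threshold (-0.46, edgeR adjusted p = 0.0585), and by FPKM control replicate 1 (4.26) lay inside the FKA range of 4.14 to 4.60.

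MITF, the factor of melanocytes, osteoclasts and mast cells, had the lowest mean FPKM in both groups. By FPKM it overlapped FNIP2 in FKA libraries. It had 8.39, 11.5 and 11.5 CPM in FKA replicates 1 to 3, against 8.62, 10.3 and 13.0 CPM in control replicates 1 to 3. The groups overlapped fully, and the fitted value of -0.02 (SE 0.199, edgeR adjusted p = 0.921) turned positive under some scalings and left-out libraries. Transcripts from the separate starts of MITF cannot be told apart in counts per gene. Summed CPM of the melanocyte markers were 0.406 to 0.834 in FKA libraries and 0.476 to 0.838 in controls. DCT, the only 1 of them that was tested, was called higher (log2 fold change 1.88, edgeR adjusted p = 0.0392) at very low counts. It had 14, 9 and 14 counts in FKA replicates 1 to 3, against 1, 8 and 1 in control replicates 1 to 3. That call was lost in 10 of 15 alternatives.

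TFE3 made up more of the summed factor transcripts in every FKA library than in any control library. Summed FPKM of TFEB, TFE3 and MITF were 30.3, 43.4 and 37.8 in FKA replicates 1 to 3, against 11.5, 18.3 and 16.5 in control replicates 1 to 3, a log2 difference of 1.28. TFEB made up 12.0% ± 2.37 of that sum in FKA libraries, against 38.5% ± 1.73 in controls (SD, n = 3 each). TFE3 made up 83.3% ± 2.47 in FKA libraries, against 51.0% ± 2.71 in controls (SD, n = 3 each). For both the sum and the TFEB share the groups did not overlap, and the two-sided exact permutation p was 0.1, the smallest that 3 against 3 libraries allow. A share within a library does not depend on how libraries are scaled, whereas the sum and the differences in FPKM do. FPKM carry no TMM scaling. With library totals alone the median log2 fold change of all tested genes was 0.17, against 0.01 with TMM. The difference in mean FPKM, FKA minus control, was 23.2 for TFE3 and -1.62 for TFEB.

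**Figure D2:**
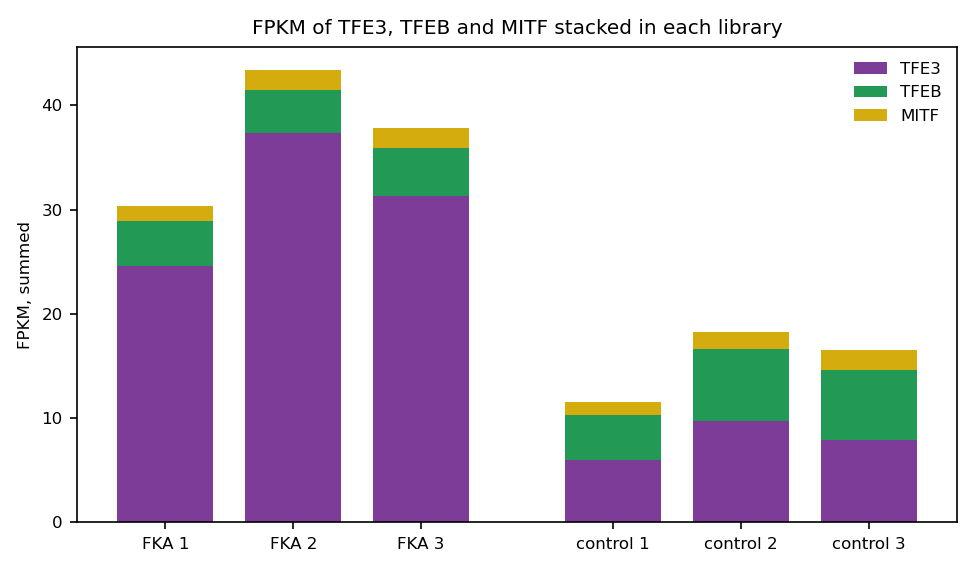
Stacked FPKM of TFE3, TFEB and MITF (vertical axis from 0) in each of the 3 FKA and 3 control libraries. The bars reach 30.3 to 43.4 FPKM in FKA libraries and 11.5 to 18.3 FPKM in controls, and TFE3 fills most of each FKA bar.

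TFEC, the remaining gene of the MiT/TFE family and known mostly from macrophages, is not among the 10 genes. It had 16.3, 23.7 and 32.0 CPM in FKA replicates 1 to 3, against 13.8, 15.8 and 17.8 CPM in control replicates 1 to 3. FKA replicate 1 lay inside the control range, and FKA replicate 3 was the highest. The value was 0.60 (SE 0.226, edgeR adjusted p = 0.0445). It fell to 0.34 without FKA replicate 3 (edgeR adjusted p = 0.178), and the call was also lost without FKA replicate 2 (0.61, edgeR adjusted p = 0.0812), control replicate 1 (0.51, edgeR adjusted p = 0.114), control replicate 2 (0.59, edgeR adjusted p = 0.0968) or control replicate 3 (0.69, edgeR adjusted p = 0.0594). Without FKA replicates 2 and 3 together it was 0.03 (edgeR adjusted p = 0.924).

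Of the folliculin complex FLCN fell, and FNIP1 and FNIP2 did not pass the test. FLCN, its catalytic subunit and the gene of Birt-Hogg-Dubé syndrome, had 52.5, 44.1 and 52.7 CPM in FKA replicates 1 to 3, against 56.7, 60.0 and 70.3 CPM in control replicates 1 to 3. The groups did not overlap, as in 67.3% of tested genes, but control replicate 1 lay near the FKA libraries and by FPKM (7.20) it lay inside their range of 6.49 to 7.62. The fitted value was -0.33 (SE 0.115, edgeR adjusted p = 0.0353), with -0.11, -0.44 and -0.42 in batches 1, 2 and 3. The call was lost without FKA replicate 1 (-0.37, edgeR adjusted p = 0.0551), FKA replicate 2 (-0.24, edgeR adjusted p = 0.125), FKA replicate 3 (-0.37, edgeR adjusted p = 0.0517) or control replicate 3 (-0.24, edgeR adjusted p = 0.129), and with library totals (-0.17, edgeR adjusted p = 0.231). In the GENCODE v29 transcripts 27.8% of the 50-base words of FLCN also stood in other genes, mostly in an overlapping gene on the same strand, so its reads may have been divided.

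FNIP1, a folliculin partner that AMPK phosphorylates, had the highest mean FPKM of the 10 genes in controls, where it overlapped RRAGA. It had 75.5, 62.3 and 71.3 CPM in FKA replicates 1 to 3, against 77.2, 72.1 and 87.5 CPM in control replicates 1 to 3. The groups overlapped (-0.18, SE 0.108, edgeR adjusted p = 0.179). FNIP2, the other partner, had 30.9, 20.0 and 20.9 CPM in FKA replicates 1 to 3, against 29.9, 26.2 and 36.2 CPM in control replicates 1 to 3. FKA replicate 1 lay inside the control range and the other FKA libraries below it. The value of -0.36 (SE 0.189, edgeR adjusted p = 0.124) passed without FKA replicate 1 (-0.59, edgeR adjusted p = 0.0174), and its batch values were 0.05, -0.39 and -0.79. The FPKM ratio of FNIP2 to FNIP1 was 0.183 ± 0.0324 in FKA libraries and 0.208 ± 0.0135 in controls (SD, n = 3 each), and the groups overlapped (two-sided exact permutation p = 0.3).

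Among the RAG GTPases RRAGA rose most. It encodes the main partner that binds mTORC1 in its GTP-bound state. It had 34.2, 38.2 and 35.4 CPM in FKA replicates 1 to 3, against 18.9, 17.0 and 17.5 CPM in control replicates 1 to 3. Each group was tight and the gap between them was wide. The rise was 2.02-fold (log2 fold change 1.01, SE 0.105, edgeR adjusted p = 6.94e-05), and the batch values were 0.86, 1.17 and 1.02.

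RRAGB is the close paralog of RRAGA and takes the same place in the pair. It had 14.7, 15.4 and 13.7 CPM in FKA replicates 1 to 3, against 10.4, 11.4 and 12.3 CPM in control replicates 1 to 3. The groups did not overlap but nearly met. The value was 0.36 (SE 0.133, edgeR adjusted p = 0.042), with batch values of 0.50, 0.43 and 0.15. Blocked on batch, edgeR gave an adjusted p of 0.0514. The call was lost without any 1 library, namely FKA replicates 1 (0.35, edgeR adjusted p = 0.0978), 2 (0.32, edgeR adjusted p = 0.118) and 3 (0.40, edgeR adjusted p = 0.0558), and control replicates 1 (0.29, edgeR adjusted p = 0.0913), 2 (0.35, edgeR adjusted p = 0.0978) and 3 (0.41, edgeR adjusted p = 0.0559).

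Relative to RRAGA, RRAGB stood lower in every FKA library than in any control library. The FPKM ratio of RRAGB to RRAGA was 0.290, 0.273 and 0.262 in FKA replicates 1 to 3, against 0.372, 0.453 and 0.477 in control replicates 1 to 3. The log2 difference was -0.65 (two-sided exact permutation p = 0.1, the smallest possible here). None of the 50-base words of the RRAGA and RRAGB coding transcripts of GENCODE v29 stood in a transcript of another gene, so reads of that length tell the paralogs apart.

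RRAGC and RRAGD take the other place in the pair, the one that folliculin acts on. RRAGC had 48.1, 38.6 and 42.3 CPM in FKA replicates 1 to 3, against 29.2, 23.3 and 29.9 CPM in control replicates 1 to 3. All FKA libraries lay above all controls. The rise was 1.57-fold (log2 fold change 0.65, SE 0.132, edgeR adjusted p = 0.0026), and 42.3% of the 50-base words of RRAGC also stood in an overlapping gene on the same strand.

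RRAGD is a described target of TFEB and TFE3. It had 23.6, 22.8 and 25.0 CPM in FKA replicates 1 to 3, against 13.8, 12.0 and 15.0 CPM in control replicates 1 to 3. Here too the groups stood well apart. The rise was 1.76-fold by the fit (log2 fold change 0.81, SE 0.126, edgeR adjusted p = 0.00059). Batches 1, 2 and 3 gave 0.78, 0.93 and 0.74. For this pair of paralogs the groups overlapped: the FPKM ratio of RRAGD to RRAGC was 0.304 ± 0.0317 in FKA libraries and 0.270 ± 0.0123 in controls (SD, n = 3 each, two-sided exact permutation p = 0.3).

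**Figure D3:**
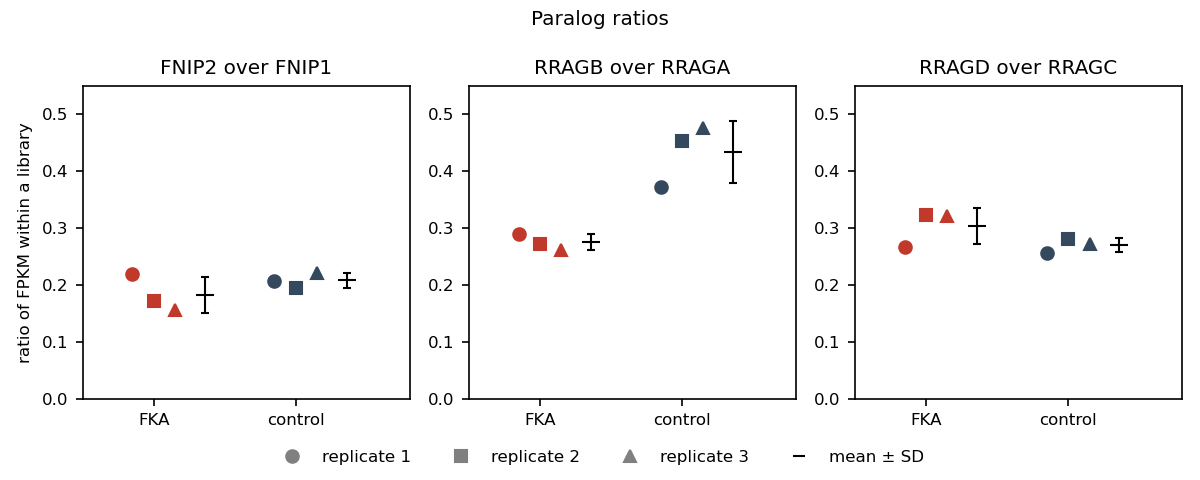
Ratio of FPKM between paralogs within a library (vertical axis from 0) in FKA and control libraries, with mean and SD. RRAGB over RRAGA was 0.262 to 0.290 in FKA libraries and 0.372 to 0.477 in controls, whereas the groups overlapped for the other pairs.

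**Figure D4:**
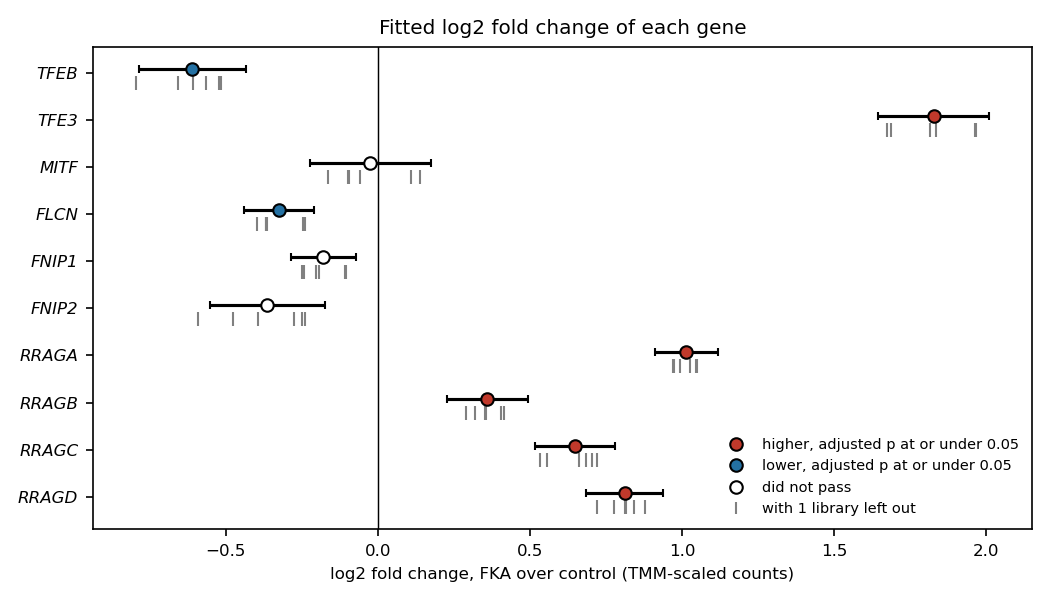
Fitted log2 fold change of FKA over control with its SE (points and bars), and the value with each of the 6 libraries left out (ticks). TFE3 at 1.83 and RRAGA at 1.01 stand farthest from 0, TFEB at -0.61 is the lowest, and only the ticks of MITF lie on both sides of 0.

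Per length, the order of the genes changed at its top and lower down. TFEB stood at rank 6 in controls, above RRAGD, and at rank 8 in FKA libraries, below RRAGD. In FKA libraries TFE3 led with 31.1 ± 6.37 FPKM, overlapping RRAGA at 23.8 ± 1.55 FPKM (SD, n = 3 each). RRAGC (16.9), FNIP1 (11.0), FLCN (7.24), RRAGB (6.53), RRAGD (5.11), TFEB (4.36), FNIP2 (2.03) and MITF (1.76) followed by mean FPKM, and of these neighbours FLCN with RRAGB and FNIP2 with MITF overlapped. In controls the order by mean FPKM was FNIP1 (11.2), RRAGA (10.5), RRAGC (9.66), FLCN (8.13), TFE3 (7.87), TFEB (5.97), RRAGB (4.56), RRAGD (2.61), FNIP2 (2.33) and MITF (1.60). Neighbours overlapped from FNIP1 down to RRAGB, and RRAGD overlapped FNIP2. Among all tested genes TFE3 stood at the 87.4th percentile of mean FPKM in FKA libraries and at the 58.4th in controls.

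The letters before the start of some of these genes hold the E-box CACGTG, the core of the CLEAR element that MiT/TFE factors bind. RefSeq promoter windows (GRCh38.p14, 250 bases before to 50 after a start) matched 8 of the 10 genes, all but RRAGA and RRAGD, in 13 windows. CACGTG, which reads the same on both strands, stood in the windows of RRAGB, RRAGC and FNIP1, and in 9.29% of the windows of tested genes (7.26% of all windows). The 250 bases before the start are shown for these 3 genes, since 2 of them rose and the third did not pass, with each CACGTG in capitals. RRAGB lies on chrX:55717499-55717748 (plus strand), RRAGC on chr1:38859773-38860022 (minus strand) and FNIP1 on chr5:131797018-131797267 (minus strand).
RRAGB: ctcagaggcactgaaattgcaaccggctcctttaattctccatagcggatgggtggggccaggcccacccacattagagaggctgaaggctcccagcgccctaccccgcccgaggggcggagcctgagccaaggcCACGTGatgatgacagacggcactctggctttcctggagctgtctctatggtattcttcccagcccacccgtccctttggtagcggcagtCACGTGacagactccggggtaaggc
RRAGC: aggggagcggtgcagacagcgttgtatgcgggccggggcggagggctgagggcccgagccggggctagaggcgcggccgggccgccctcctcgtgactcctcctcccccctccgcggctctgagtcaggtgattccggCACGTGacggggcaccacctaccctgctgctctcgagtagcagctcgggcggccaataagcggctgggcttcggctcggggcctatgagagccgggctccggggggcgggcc
FNIP1: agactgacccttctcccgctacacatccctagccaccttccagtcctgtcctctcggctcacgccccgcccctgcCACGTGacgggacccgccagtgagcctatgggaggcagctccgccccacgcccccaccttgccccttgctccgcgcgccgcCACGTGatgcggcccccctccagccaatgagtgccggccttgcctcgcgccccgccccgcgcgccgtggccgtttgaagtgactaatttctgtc

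RRAGB holds CACGTG at -115, -25 and 8, counted to the first base from the start site, where the first transcribed base is 1. Its copy at -25 lies within the longer TCACGTGA of the CLEAR element, which none of the other matched genes holds and which stood in 1.66% of the windows of tested genes. RRAGC holds 1 copy at -112, and FNIP1 holds copies at -175 and -94. The related M-box TCATGTG, searched on both strands and sharing no full match with CACGTG, stood in 1 window of FNIP2 and in 1.81% of the windows of tested genes. The windows of TFEB, TFE3, MITF and FLCN held neither. These matches describe letters only, and binding was not measured.

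Of the genes that anchor and switch the RAG pair, the Ragulator scaffold rose in part. In the following, a value given alone after a gene is its log2 fold change. Counts of calls in each list stand against 29.3% of all tested genes called higher and 30.5% called lower. The called shares of the Ragulator and GATOR2 lists, and of the other described targets given further below, lie near the 59.8% called in either direction. Among 5 LAMTOR genes and SLC38A9, 3 rose, 1 fell and 2 did not pass (median 0.39). LAMTOR4 rose by 0.63 (37.8 ± 0.462 CPM in FKA libraries, 24.4 ± 1.96 CPM in controls; edgeR adjusted p = 0.000739) and LAMTOR1 by 0.47 (edgeR adjusted p = 0.0016). LAMTOR3 (0.46, edgeR adjusted p = 0.018) lost its call without FKA replicate 1 (edgeR adjusted p = 0.0645), FKA replicate 3 (edgeR adjusted p = 0.0552) or control replicate 2 (edgeR adjusted p = 0.0557). The lysosomal arginine carrier SLC38A9 fell (-0.32, edgeR adjusted p = 0.0183). Library totals (-0.16, edgeR adjusted p = 0.183) or a fit without FKA replicate 2 (-0.27, edgeR adjusted p = 0.0705) ended that call. LAMTOR2 and LAMTOR5 did not pass, while LAMTOR5 (0.32, edgeR adjusted p = 0.0578) passed in 8 of 17 alternatives. Among them were the batch block (edgeR adjusted p = 0.0318), library totals (edgeR adjusted p = 0.00613) and the fit without control replicate 1 (edgeR adjusted p = 0.011).

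GATOR1 and its tether KICSTOR, which switch RRAGA and RRAGB off, fell in part. Of 7 genes 4 fell (median -0.43), and 2 fell with library totals or without FKA replicates 2 and 3. KICS2, a KICSTOR subunit, had 5.84 ± 0.779 CPM in FKA libraries and 18.4 ± 4.78 CPM in controls (-1.66, edgeR adjusted p = 0.000189), and the GATOR1 subunit NPRL3 fell by 0.74 on the log2 scale (edgeR adjusted p = 0.00126). KPTN (-0.45, edgeR adjusted p = 0.047) lost its call whichever library was left out, with edgeR adjusted p from 0.0583 to 0.131, and when blocked on batch (edgeR adjusted p = 0.0612). Of 5 genes of GATOR2, which opposes GATOR1, 1 rose (WDR59, 0.40), 2 fell (SEH1L, -0.57, and MIOS, -0.35) and 2 did not pass, and 2 rose and 0 fell with library totals. None of these 3 GATOR2 calls held under every left-out library: edgeR adjusted p rose to 0.074 for WDR59 without control replicate 3, to 0.0852 for SEH1L without control replicate 1 and to 0.108 for MIOS without FKA replicate 2.

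The amino acid sensors rose or fell, all past the threshold. Of 7 genes 5 rose and 2 fell (median 0.75), and without FKA replicates 2 and 3 these counts were 4 and 2. The arginine sensor CASTOR1 (2.49, 2.85 ± 0.504 CPM in FKA libraries and 0.498 ± 0.207 CPM in controls, edgeR adjusted p = 0.000341) and its paralog CASTOR2 (2.16, edgeR adjusted p = 3.83e-05) rose, as did the sestrin SESN3 (1.70, edgeR adjusted p = 0.000131). The leucine sensor SESN2 fell to 39.4 ± 5.52 CPM in FKA libraries, against 83.0 ± 8.65 CPM in controls (-1.08, edgeR adjusted p = 0.000123). LARS1, the leucyl-tRNA synthetase, fell to 187 ± 47.9 CPM in FKA libraries, against 554 ± 68.1 CPM in controls (-1.57, edgeR adjusted p = 0.000147).

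For mTORC1 and its switch, subunits fell and the TSC inhibitors rose. Of 8 tested genes 2 rose, 5 fell and 1 did not pass (median -0.35), and without FKA replicates 2 and 3 these were 2 rises and 2 falls. MLST8, a core subunit, had 15.9 ± 1.83 CPM in FKA libraries and 49.2 ± 1.36 CPM in controls (-1.62, edgeR adjusted p = 1.03e-05). DEPTOR, an inhibitory subunit, fell by 1.38 on the log2 scale (edgeR adjusted p = 0.0116), and the kinase MTOR by 0.39 (edgeR adjusted p = 0.00277). TSC1 had 89.8 ± 12.0 CPM in FKA libraries and 40.3 ± 5.06 CPM in controls (1.16, edgeR adjusted p = 0.000105), and TSC2 rose by 0.72 (edgeR adjusted p = 0.000153).

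The AMPK subunits were mostly not called. Of 5 tested genes 1 rose, or 3 with library totals (PRKAG2, 0.27, edgeR adjusted p = 0.0494) and 4 did not pass, among them PRKAA1 (0.18, edgeR adjusted p = 0.0815). PRKAG2 lost its call in each of the 6 fits with 1 library left out, with edgeR adjusted p from 0.0765 to 0.168, and when blocked on batch (edgeR adjusted p = 0.0576). By edgeR and by DESeq2 0 of the 5 fell, and 0 had an unadjusted p under 0.05 in that direction.

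Genes whose products set the location of TFEB and TFE3 went in both directions. Of 15 tested genes 7 rose, 6 fell and 2 did not pass (median 0.24, and 8 rose and 2 fell with library totals). The GABARAP proteins, which bind folliculin on damaged lysosomes, rose together: GABARAPL1 (2.38, 45.6 ± 6.02 CPM in FKA libraries and 8.73 ± 2.63 CPM in controls, edgeR adjusted p = 3.15e-05), GABARAPL2 (1.35, edgeR adjusted p = 7.78e-06) and GABARAP (1.30, edgeR adjusted p = 7.68e-06). The most abundant gene, YWHAZ, a 14-3-3 protein, had 1183 ± 53.3 CPM in FKA libraries and 1514 ± 175 CPM in controls (-0.36, edgeR adjusted p = 0.0237). That call was lost under library totals (edgeR adjusted p = 0.177), as well as without FKA replicate 1 (edgeR adjusted p = 0.0869), FKA replicate 3 (edgeR adjusted p = 0.0768) or control replicate 3 (edgeR adjusted p = 0.0649).

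Lysosome and autophagy genes described with CLEAR elements rose widely. Of 36 tested genes 30 rose, 6 did not pass and 0 fell (median 0.84, against 0.01 over all tested genes). DESeq2 also called 30 rises and 0 falls, and 1 gene had an unadjusted p under 0.05 downward in either tool. Without FKA replicates 2 and 3, 26 rose. The sulfamidase SGSH rose by 4.26 from a very low level (3.11 ± 0.778 CPM in FKA libraries and 0.157 ± 0.0846 CPM in controls, edgeR adjusted p = 5.19e-05). Cathepsin D (CTSD) had 159 ± 38.8 CPM in FKA libraries and 36.9 ± 1.83 CPM in controls (2.11, edgeR adjusted p = 1.74e-05). Prosaposin (PSAP), the most abundant, had 1191 ± 122 CPM in FKA libraries and 360.5 ± 30.4 CPM in controls (1.72, edgeR adjusted p = 9.33e-06). GABARAPL1 and MCOLN1 (1.10, edgeR adjusted p = 0.000258) rose and are counted both here and among the genes that set the location of TFEB and TFE3.

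Other described targets of the family did not follow one direction. Of 11 tested genes 3 rose, 4 fell and 4 did not pass (median -0.04). These counts lie near the shares of all tested genes, of which 29.3% were called higher and 30.5% lower. Cathepsin K (CTSK), a target in osteoclasts, had 18.4 ± 0.678 CPM in FKA libraries and 3.74 ± 0.456 CPM in controls (2.30, edgeR adjusted p = 8.31e-06), and OSTM1, the partner of a lysosomal chloride exchanger, rose by 0.93 (edgeR adjusted p = 2.77e-05). PLIN2, a lipid droplet coat protein, stood at 0.49 (edgeR adjusted p = 0.0164), and lost its call without FKA replicate 1 (edgeR adjusted p = 0.0603) or control replicate 3 (edgeR adjusted p = 0.0676). DDIT4, an inhibitor of mTORC1 signaling, fell to 183 ± 78.9 CPM in FKA libraries, against 870 ± 173 CPM in controls (-2.25, edgeR adjusted p = 0.0002), together with SESN2, which is counted in both lists.

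**Figure D5:**
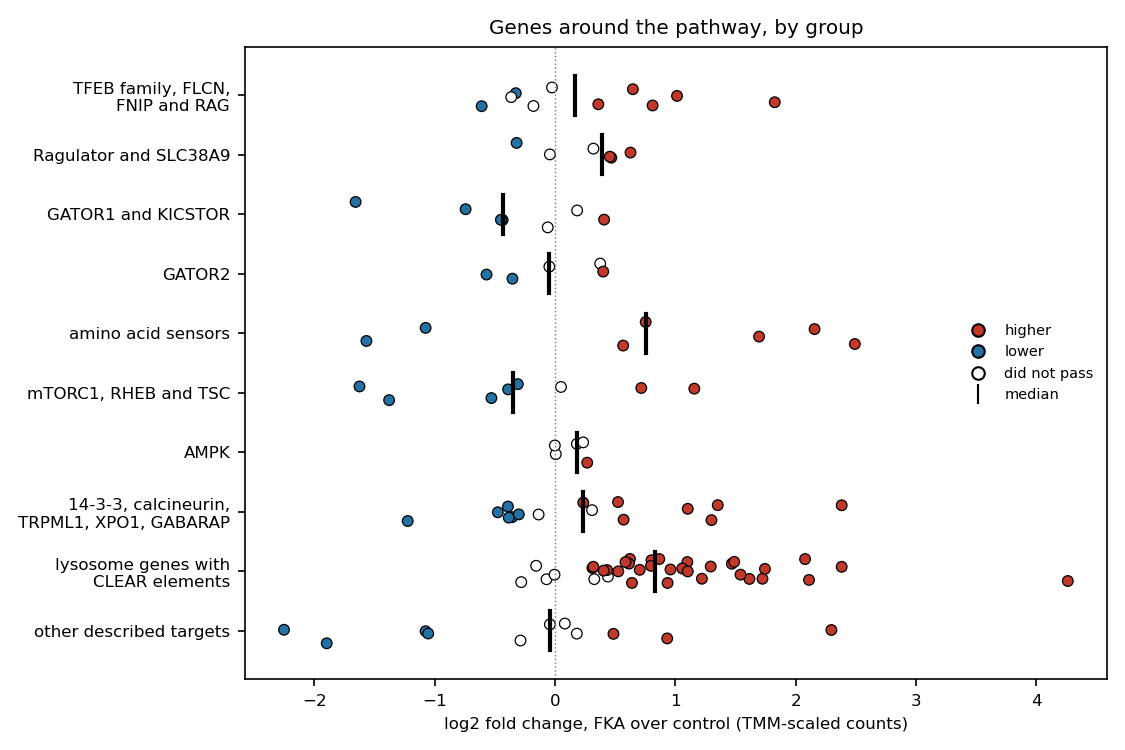
Log2 fold change of FKA over control (horizontal axis) for each tested gene, by group; filled points passed an edgeR adjusted p of 0.05 and bars mark medians. The median of the lysosome genes with CLEAR elements was 0.84, and that of GATOR1 and KICSTOR was -0.43.

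The tested genes with the pattern most like that of TFE3 were BCAN-AS1, WIPI1 and ITPRIPL2. Likeness was the root mean square distance of mean-centred log2 CPM over the 6 libraries, which was 0.0849, 0.104 and 0.113 for these genes, and 47 of 13530 genes lay within 0.2 of TFE3. For TFEB they were CEP97, ZNF530 and PHLPP1, at 0.0636, 0.0728 and 0.0828, and 557 of 13530 genes lay within 0.2. CEP97 had 23.1, 23.0 and 23.1 CPM in FKA replicates 1 to 3, against 25.8, 36.9 and 38.7 CPM in control replicates 1 to 3. Like TFEB, it was low in control replicate 1. BCAN-AS1 is an antisense gene, and without a stated use of strand its reads cannot be told from those of genes it overlaps.

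Library totals ran from 29971171 to 33183376 counts in the FKA group and from 33759185 to 36362421 in the control group. The 12 myeloid markers of the line were all detected, with summed levels of 1602 to 1653 CPM in FKA libraries and 1493 to 1682 CPM in controls. Those sums are mostly CEBPA and FLT3, which did not pass. Of the 12 markers 4 rose and 3 fell, near the 29.3% and 30.5% of all tested genes called higher and lower. MPO, the granule peroxidase of myeloid precursors, averaged 1.06 CPM in FKA libraries and 44.5 CPM in controls (-5.36, edgeR adjusted p = 6.94e-05), and CSF3R and ITGAM, receptors of maturing myeloid cells, rose by 1.53 (edgeR adjusted p = 5.57e-06) and 1.51 (edgeR adjusted p = 0.000415). CD14 (2.22, edgeR adjusted p = 0.00174, 0.234 CPM in controls) and MEIS1 (0.58, edgeR adjusted p = 0.0434) also rose. For MEIS1 the groups overlapped, with 68.0 CPM in FKA replicate 3 and 77.4 CPM in control replicate 2. CEBPB (-1.46, edgeR adjusted p = 0.000234) and HOXA9 (-0.52, edgeR adjusted p = 0.0437) fell. HOXA9 lost its call in 12 of 17 alternatives, among them the batch block (edgeR adjusted p = 0.0645) and library totals (edgeR adjusted p = 0.152). Its FKA replicate 1 (8.32 CPM) lay inside the control range of 8.17 to 12.9 CPM. CD33, SPI1 and LYZ did not pass. Summed fibroblast markers were 10.2, 64.9 and 65.2 CPM in FKA replicates 1 to 3, against 53.8, 34.2 and 19.4 CPM in control replicates 1 to 3. COL6A3, the most abundant of them by the mean of all libraries, fell (-1.29, edgeR adjusted p = 0.0053), while FN1 led in FKA replicates 2 and 3: it had 799 and 791 counts in FKA replicates 2 and 3 but 19 in FKA replicate 1, against 170, 168 and 18 counts in control replicates 1 to 3, and did not pass (edgeR adjusted p = 0.0989). Of the 7 tested fibroblast markers 1 fell and 6 did not pass, and their median log2 fold change was 2.18. COL1A1, COL1A2, COL3A1, COL5A1 and SPARC were also highest in FKA replicates 2 and 3. COL1A1 had 11, 417 and 449 counts in FKA replicates 1 to 3, against 75, 82 and 4 in control replicates 1 to 3. Without FKA replicates 2 and 3, TFE3 (1.48), RRAGA (0.93), RRAGC (0.80) and RRAGD (0.79) still passed (edgeR adjusted p of 0.00213, 0.00638, 0.0156 and 0.022), and 0 of the 10 genes were called lower, with 0 at an unadjusted p under 0.05. Summed lymphoid markers, led by NKG7, were 9.44 to 10.2 CPM in FKA libraries and 21.8 to 24.8 CPM in controls, and epithelial markers, led by KRT18, were 12.9 to 18.8 CPM in FKA libraries and 19.2 to 21.8 CPM in controls. ITGA2B, an erythroid and megakaryocyte list gene, had 0 to 0.281 CPM in FKA libraries and 0.0322 to 0.14 CPM in controls. The tables held 6 of 8 melanocyte, 12 of 12 fibroblast, 5 of 9 lymphoid, 5 of 7 epithelial and 1 of 9 erythroid and megakaryocyte markers. No gene of the tables was at 0 in all libraries, so a marker missing from them may have had no counts. The part of these markers in the results was not tested.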

How the data were processed

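RNA-seq of 6 libraries of the MV4;11 line (3 FKA, 3 control) was analysed, grouped by the titles. The authors deposited whole-number read counts per gene and FPKM values. The FPKM of a gene implied 1 length per gene in all libraries, with a largest relative spread of 8.45e-07. Per the submitters' processing notes the builds are GRCm38 and mm10, which are mouse builds, while 94.5% of the symbols matched the human RefSeq table. How reads were aligned and counted, and whether by strand, is not given in the sources used, so no gene coordinates come from the files.

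Counts were filtered with filterByExpr, TMM-scaled and tested with edgeR 4.0.16 (quasi-likelihood F test, FKA over control, Benjamini-Hochberg over 13531 genes) in R 4.3.3. The test was checked on simulated counts. Single ratios and shares of FPKM were compared with exact permutation tests. Alternatives were the batch block, DESeq2 1.42.0, other scalings and filters, limma 3.58.1 on log2(FPKM + 1) and log2(FPKM + 0.1), and leaving out libraries. Leaving out FKA replicates 2 and 3 together was chosen after seeing the data. Per the labels each FKA library shares a batch with the control of the same number, which is the source of the pairing; deviations from group means correlated by 0.05, 0.34 and -0.08 within batches 1, 2 and 3. Replicates of a group differed by a chi-square of 21.7 to 66.3 per degree of freedom, above counting noise.

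The members and gene lists were chosen with earlier results of these data known. From each list the text names up to 3 called genes of largest change whose higher group averaged 50 counts or more, called genes that go against the list where at most 3 do, and the most abundant gene of marker lists. YWHAZ, PRKAA1, LAMTOR5, MTOR and PSAP, each the most abundant of its list, FLT3, MPO, CSF3R, ITGAM and FN1 were named outside that rule, after their values were seen. The same holds for MCOLN1, CD14, MEIS1, CD33, SPI1, LYZ, COL1A1, COL1A2, COL3A1, COL5A1 and SPARC. Antisense and overlapping genes are uncertain. A result of the GATOR1 and KICSTOR list is not reported here.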

Additional observations from a re-analysis of the deposited data

How the results depend on the processing

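TFE3, RRAGA, RRAGC and RRAGD rose and passed the threshold in all 17 alternatives, with log2 fold changes of 1.48 to 1.98, 0.93 to 1.17, 0.53 to 0.81 and 0.72 to 0.97. TFEB and FLCN were lower in all 17 but lost their call in 7 and 10 of them, and RRAGB was higher in all 17 and lost its call in 9. With the batch as a block, 8289 genes were called (8090 without), RRAGB missed the threshold and no other call of the 10 genes changed. Of the 10 genes, 1 was called lower with upper-quartile scaling, and 0 with library totals (edgeR, 1 at an unadjusted p under 0.05) or in the 3 limma fits on FPKM (0 at an unadjusted p under 0.05). Leaving out 1 library gave 0 to 2 lower calls and 4 higher calls. Leaving out FKA replicates 2 and 3 gave 4619 called genes and 0 lower members. MITF turned positive with upper-quartile scaling (0.047), library totals (0.13), log2(FPKM + 1) (0.086, also with a mean FPKM of at least 1), log2(FPKM + 0.1) (0.13), and without FKA replicate 1 (0.11) or control replicate 3 (0.14), within a range of -0.16 to 0.14 over the single libraries. Over all tested genes the median log2 value was 0.17 with library totals (0.01 with TMM), and 60.3% of calls were then higher, against 48.9% with TMM. The 5 summed levels, shares and ratios kept their direction in the 9 alternatives that apply to them, and exact tests on 3 against 3 libraries cannot go below 0.1. The cause of these changes was not tested; fits without a library have fewer samples.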
